A study of Mus musculus with 36 samples.

Results

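The small nucleolar RNA (snoRNA) genes described here are the mouse genes named Snord (box C/D) or Snora (box H/ACA) followed by a number, with at least 10 counts summed over 9 knee libraries. Of 55291 genes in the count table, 138 carried such a name and 51 reached 10 counts. These members comprised 23 of 98 box C/D names and 28 of 40 box H/ACA names. A further 35 names (33 box C/D and 2 box H/ACA) had no count in any library, and 52 had 1 to 9 counts. Just inside the limit stood Snord42b and Snord49a with 11 counts each and Snord14d, Snord23 and Snord49b with 12, and just outside it Snora2b with 9 and Snord34, Snord53, Snord72 and Snora47 with 8.

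The study asked how the knee responds in the first day after its anterior cruciate ligament (ACL) is injured and what inhibition of protein kinase C (PKC) changes. Total RNA of mouse knee joint tissue was depleted of ribosomal RNA and sequenced as read pairs of 100 bases. The first group (inhibitor) had ACL injury and was given a PKC inhibitor, the second (vehicle) had ACL injury and was given 0.9% saline, and the third (sham) had no ACL injury. Each group had 3 biological replicates, collected at 24 h. The name and dose of the inhibitor and the strain and age of the mice are not given in the sources used here. The labels of these samples call the material knee joint tissue, whereas a protocol elsewhere in the series calls it cartilage. The cartilage collagen gene Col2a1 had 1262 to 8698 counts per library, and marker genes of skeletal muscle and marrow were present beside it. In such bulk tissue, fewer cells of a type and less RNA per cell cannot be told apart.

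SnoRNAs are short, stable RNAs of the nucleolus, most of which are cut out of the introns of a host gene. Box C/D RNAs assemble with fibrillarin, NOP56, NOP58 and SNU13 and guide ribose methylation of ribosomal RNA, while box H/ACA RNAs assemble with dyskerin, GAR1, NHP2 and NOP10 and guide pseudouridylation. A few, among them U3, U8, U22 and the Snora73 (U17) RNAs, act instead in cleavage or folding of the ribosomal RNA precursor.

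The sequences of the most counted members and of 3 others show the 2 architectures, and they are given 5′ to 3′ on GRCm38 from the GENCODE M21 transcripts. In the box H/ACA RNAs the capitals mark the ACA box near the 3′ end. Snora73a and Snora73b are a near-identical pair from the Snhg3 locus on chromosome 4, Snora23 lies in Ipo7, and Snora52, the member with the smallest p for the inhibitor, lies in Rplp2.
Snora73a: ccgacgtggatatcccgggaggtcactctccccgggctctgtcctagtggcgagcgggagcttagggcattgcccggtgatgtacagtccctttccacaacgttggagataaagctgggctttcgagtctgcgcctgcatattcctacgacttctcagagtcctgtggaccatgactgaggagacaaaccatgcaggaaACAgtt
Snora73b: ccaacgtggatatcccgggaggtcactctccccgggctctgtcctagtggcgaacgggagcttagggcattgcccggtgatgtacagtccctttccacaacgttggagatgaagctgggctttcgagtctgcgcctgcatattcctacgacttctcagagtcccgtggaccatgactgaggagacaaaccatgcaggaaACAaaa
Snora23: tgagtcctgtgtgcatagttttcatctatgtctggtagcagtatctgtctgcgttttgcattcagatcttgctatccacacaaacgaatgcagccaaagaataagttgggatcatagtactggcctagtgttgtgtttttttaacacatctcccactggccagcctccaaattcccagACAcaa
Snora52: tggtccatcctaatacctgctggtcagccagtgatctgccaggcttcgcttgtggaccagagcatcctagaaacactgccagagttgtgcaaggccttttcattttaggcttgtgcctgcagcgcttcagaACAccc
In the box C/D RNAs the capitals mark the C box letters TGATGA near the 5′ end and the D box letters CTGA near the 3′ end. Snord37 is shown as a short member, beside the longer RNAs that held nearly all box C/D counts.
Snord22: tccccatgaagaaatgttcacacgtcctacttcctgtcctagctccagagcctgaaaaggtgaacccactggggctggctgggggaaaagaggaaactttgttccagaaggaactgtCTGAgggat
Snord17: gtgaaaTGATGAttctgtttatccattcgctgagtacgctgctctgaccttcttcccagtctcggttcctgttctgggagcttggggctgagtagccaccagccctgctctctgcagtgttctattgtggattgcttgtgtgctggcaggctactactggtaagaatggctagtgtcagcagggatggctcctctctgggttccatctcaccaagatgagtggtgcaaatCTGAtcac
Snord15a: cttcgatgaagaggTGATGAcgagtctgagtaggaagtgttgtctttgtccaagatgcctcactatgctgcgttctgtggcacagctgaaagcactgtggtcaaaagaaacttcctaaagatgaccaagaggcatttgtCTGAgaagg
Snord15b: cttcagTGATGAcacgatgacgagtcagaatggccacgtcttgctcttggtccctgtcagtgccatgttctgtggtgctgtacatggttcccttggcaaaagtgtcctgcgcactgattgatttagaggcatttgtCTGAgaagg
Snord118: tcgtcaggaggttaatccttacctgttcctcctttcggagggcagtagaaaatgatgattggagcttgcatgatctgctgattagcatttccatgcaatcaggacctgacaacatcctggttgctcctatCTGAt
Snord37: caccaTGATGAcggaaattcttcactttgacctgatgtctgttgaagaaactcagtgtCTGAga
On GRCm38 the most counted of these lie at chr4:132352775-132352979 (Snora73a, minus strand), chr4:132352322-132352526 (Snora73b, minus), chr19:8725866-8725991 (Snord22, plus), chr2:144265979-144266216 (Snord17, minus), chr7:99479563-99479707 (Snord15b, minus), chr7:99482785-99482932 (Snord15a, minus) and chr7:110046364-110046547 (Snora23, plus).

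The box letters, searched on the RNA strand alone, followed the names. TGATGA stood in the first 30 bases of 17 of 23 box C/D members and of 71 of all 98 box C/D names, and of 0 of 40 box H/ACA names. CTGA stood in the last 30 bases of all 23 box C/D members and of 97 of 98 names, but also of 7 of 40 box H/ACA names. ACA stood in the last 10 bases of 26 of 28 box H/ACA members and of 38 of 40 names, against 8 of 98 box C/D names. In 23 of the 28 box H/ACA members exactly 3 bases followed the ACA. Snord22 and Snord118 (U8) had no TGATGA in the window searched. All 51 members lay at the same position in this annotation as in the count table.

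Members lay mostly inside other genes. On the same strand, 46 of 51 lay within the span of a host gene, with 38 distinct hosts. By the gene types of GENCODE M21, 29 members had a protein-coding host, and Cct6a (Snora15) was not typed as such. The host was often a ribosomal protein gene such as Rps3 (Snord15a and Snord15b), Rpl10 (Snora70), Rplp2 (Snora52) or Rpl32 (Snora7a). The other 5 members, Snora17, Snora43, Snora57, Snord104 and Snord118, had no host in the annotation. Of all members, 30 overlapped an annotated exon of another gene on their strand, and reads over several genes were counted for each of them. In some host RNAs without a protein product the member's total came close to that of the host. The total of Snora73a amounted to 99.6% of that of Snhg3 (51491 counts for Snora73a), and the total of Snord22 to 97.8% of that of Snhg1. For Rps3 the Snord15b total amounted to 19.7%, and for Rplp2 that of Snora52 to 1.48%.

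The counts were concentrated in few genes. The 51 members held 132576 counts, 104323 in box H/ACA and 28253 in box C/D genes. Snora73a and Snora73b together held 70.9%, and the 9 most counted members 97.2%. Per 100 bases of annotated length, summed over the 9 libraries, Snora73a had 25118 counts, Snora73b 20766, Snord22 9294, Snord15b 3414, Snord17 3151, Snord15a 2384, Snora23 1728 and Snora70 1391. Because Snora73a and Snora73b match at 198 of 205 bases and reads with several locations were counted in full at each, the level of either copy is uncertain.

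Among box C/D genes the counts lay with the longer ones. The 12 names of at least 100 bases held 27948 counts, or 1797 per 100 bases, and 7 of them were members. The 86 shorter names held 465 counts, or 6.68 per 100 bases, and 16 of them were members. These shorter names include the copies Snord116l1 to Snord116l17, each of 94 bases within Snhg14 and each without a count. All 40 box H/ACA names were at least 100 bases long and held 104373 counts, or 1853 per 100 bases. The per-length figure for the longer box C/D names rested on a few genes, since their median was 16.2 counts per 100 bases, against 3.26 for the shorter names and 39.7 for box H/ACA names. Within a class, length and total count were weakly related across genes (Spearman's rho −0.06 over 98 box C/D names and 0.19 over 40 box H/ACA names, given as a description). Known short box C/D genes were hardly counted. In the Rpl13a introns, whose snoRNAs are known from lipotoxic stress, Snord35a had 13 counts in all, Snord34 had 8, Snord33 had 6 and Snord32a had 3.

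**Figure D1:**
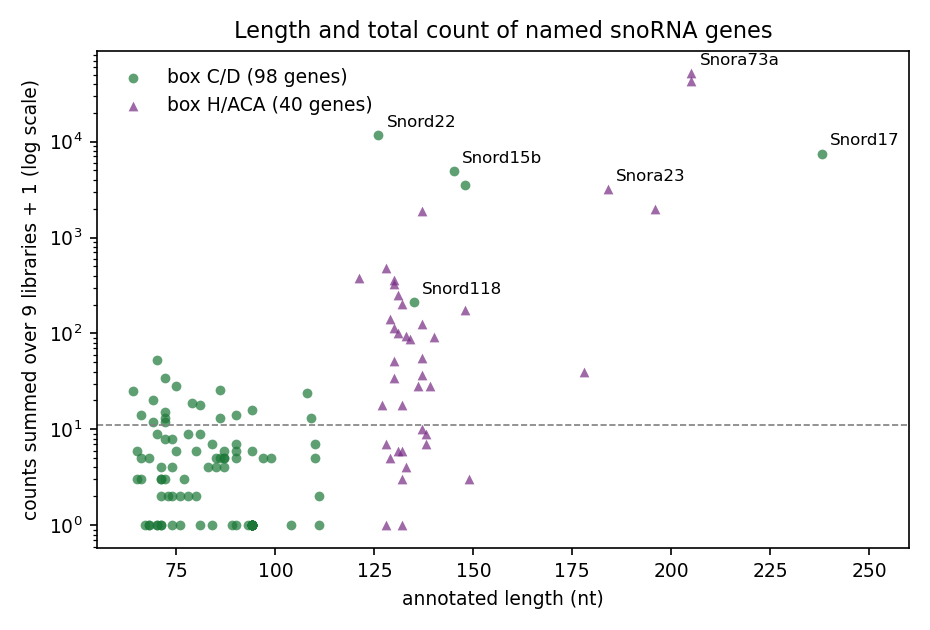
Total count over 9 libraries plus 1 (log scale) against annotated length in nucleotides for 98 box C/D (circles) and 40 box H/ACA (triangles) genes, with the limit of 10 counts as a dashed line. Among box C/D genes, only Snord22, Snord17, Snord15a, Snord15b and Snord118, all over 100 bases, stood above 100 counts.

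The libraries differed in composition. Genes of 7SL, the RNA component of the particle that brings ribosomes to the endoplasmic reticulum, took 91.2% to 98.2% of all counts, lowest in inhibitor libraries 1 and 2 (91.5% and 91.2%), and left 3.28 M to 11.9 M counts outside them. The 5 genes of U3, itself a box C/D RNA outside the naming rule, took 53.6% of these in inhibitor library 1 and 9.14% in sham library 3, the highest and the lowest share. Gene models of 7SL, some nested in each other, and the U3 copies can share reads, so these are shares of counts and not of reads. Members had 1.25 (inhibitor 1) to 5.0 (vehicle 3) counts per 1000 counts outside 7SL. The normalised counts used from here on are counts scaled to the mean effective library size. Effective sizes ran from 96.4 M in sham library 3 to 467 M in inhibitor library 2. In units of 1000 normalised counts the 5 U3 genes summed to 4798, 1182 and 1257 in inhibitor libraries 1 to 3, 1593, 1827 and 1955 in vehicle libraries 1 to 3 and 795, 2682 and 649 in sham libraries 1 to 3.

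**Figure D2:**
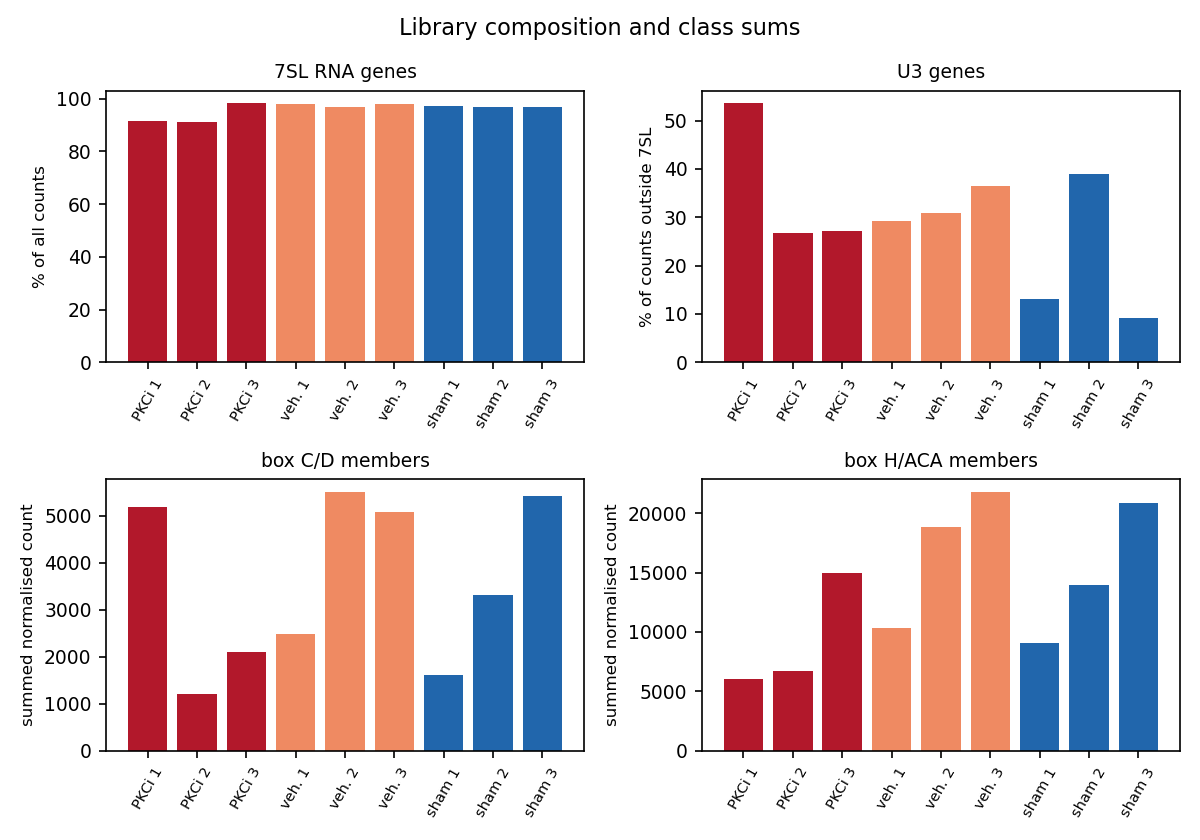
Bars for the inhibitor (PKCi), vehicle (veh.) and sham libraries show the 7SL share of all counts, the U3 share of counts outside 7SL, and the summed normalised counts of the box C/D and box H/ACA members. Inhibitor library 1 had the highest U3 share (53.6%) and the lowest box H/ACA sum (6056). Without Snora73a and Snora73b, its box H/ACA sum was the highest (2516, against 499 to 1884 in the other libraries, not drawn).

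Box H/ACA members summed to 9232 ± 4978 normalised counts in inhibitor knees, 16987 ± 5958 in vehicle knees and 14643 ± 5911 in sham knees (SD, n = 3 each). Box C/D members summed to 2831 ± 2086 in inhibitor knees, 4352 ± 1642 in vehicle knees and 3444 ± 1908 in sham knees (SD, n = 3 each). The libraries of the 3 groups overlapped in both sums. Snora73a and Snora73b carried most of the box H/ACA sum. Without them it was 1244 ± 1106 in inhibitor, 1362 ± 463 in vehicle and 949 ± 349 in sham knees (SD, n = 3 each). Without Snord22 the box C/D sum was 2168 ± 1971 in inhibitor, 2045 ± 690 in vehicle and 1366 ± 358 in sham knees (SD, n = 3 each). The ratio of the box H/ACA sum to the box C/D sum was 1.17 in inhibitor library 1 and 3.43 to 7.13 in the other 8 libraries.

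Of the 51 members, 25 passed the filter on low counts and were tested, 5 box C/D genes (Snord22, Snord17, Snord15a, Snord15b and Snord118) and 20 box H/ACA genes. The other 26 (18 box C/D and 8 box H/ACA) had at most 52 counts in all. They were not tested, and the tested genes do not stand for them.

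The first comparison asked what differs in knees 24 h after ACL injury. No member was called in vehicle against sham knees at an adjusted p of 0.05, against 0.304% of all 13823 genes tested. By edgeR's quasi-likelihood test, 0 of the 25 had an unadjusted p under 0.05, against 8.28% of all genes, and DESeq2 called 0 and found 0 with an unadjusted p under 0.05. All 25 log2 fold changes were positive, with a median of 0.64 (0.38 for the 5 box C/D and 0.65 for the 20 box H/ACA genes), against a median of −0.02 and 48.1% positive over all genes tested. The range was 0.04 (Snord118) to 1.89 (Snora21). Members share libraries and scaling and are not independent. When the libraries were scaled by the snoRNA genes alone, which by construction centres them, the median was −0.01 over the 22 that then passed the filter. The libraries of the 2 groups did not overlap for 3 of the 25 members (Snora17, Snora7a and Snora57), against 17.0% of all genes.

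The second comparison asked what differs in injured knees when PKC is inhibited. No member was called in inhibitor against vehicle knees, against 0.731% of all genes tested. One member, Snora52, had an unadjusted p under 0.05 by edgeR, against 13.4% of all genes, and DESeq2 called 0 and found 5 with an unadjusted p under 0.05. Of the 25 log2 fold changes, 7 were positive and 18 negative, with a median of −0.49 (−0.49 for box C/D and −0.52 for box H/ACA genes), against 0.04 over all genes tested. The range was −2.02 (Snora52) to 0.95 (Snora78). Scaled by the snoRNA genes alone, the median was 0.11. For 4 of the 25 members (Snord22, Snora52, Snora68 and Snora17) the libraries of the 2 groups did not overlap, against 18.9% of all genes.

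In inhibitor against sham knees, a comparison that shares its libraries with both others, no member was called, against 3.95% of all genes tested. None had an unadjusted p under 0.05 by edgeR (18.0% of all genes), and DESeq2 called 0 and found 2 with an unadjusted p under 0.05. The median log2 fold change was 0.15, against 0.03 over all genes, with 15 positive and 10 negative, and 0 members had libraries that did not overlap (22.9% of all genes).

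These tests could not set narrow limits on the members. In vehicle against sham and in inhibitor against vehicle knees, the 95% interval of 0 of the 25 log2 fold changes lay wholly within a 2-fold change in either direction. The standard error (SE) of a member's log2 fold change had a median of 0.68 in vehicle against sham and 0.66 in inhibitor against vehicle knees, against 0.35 and 0.34 over all genes tested. The SD between libraries of one group, pooled over the groups on the log2 scale, had a median of 0.98 for the members and 0.42 for all genes tested, which were not matched for level. It was smallest for Snora17 (0.22) and largest for Snora64 (1.91).

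**Figure D3:**
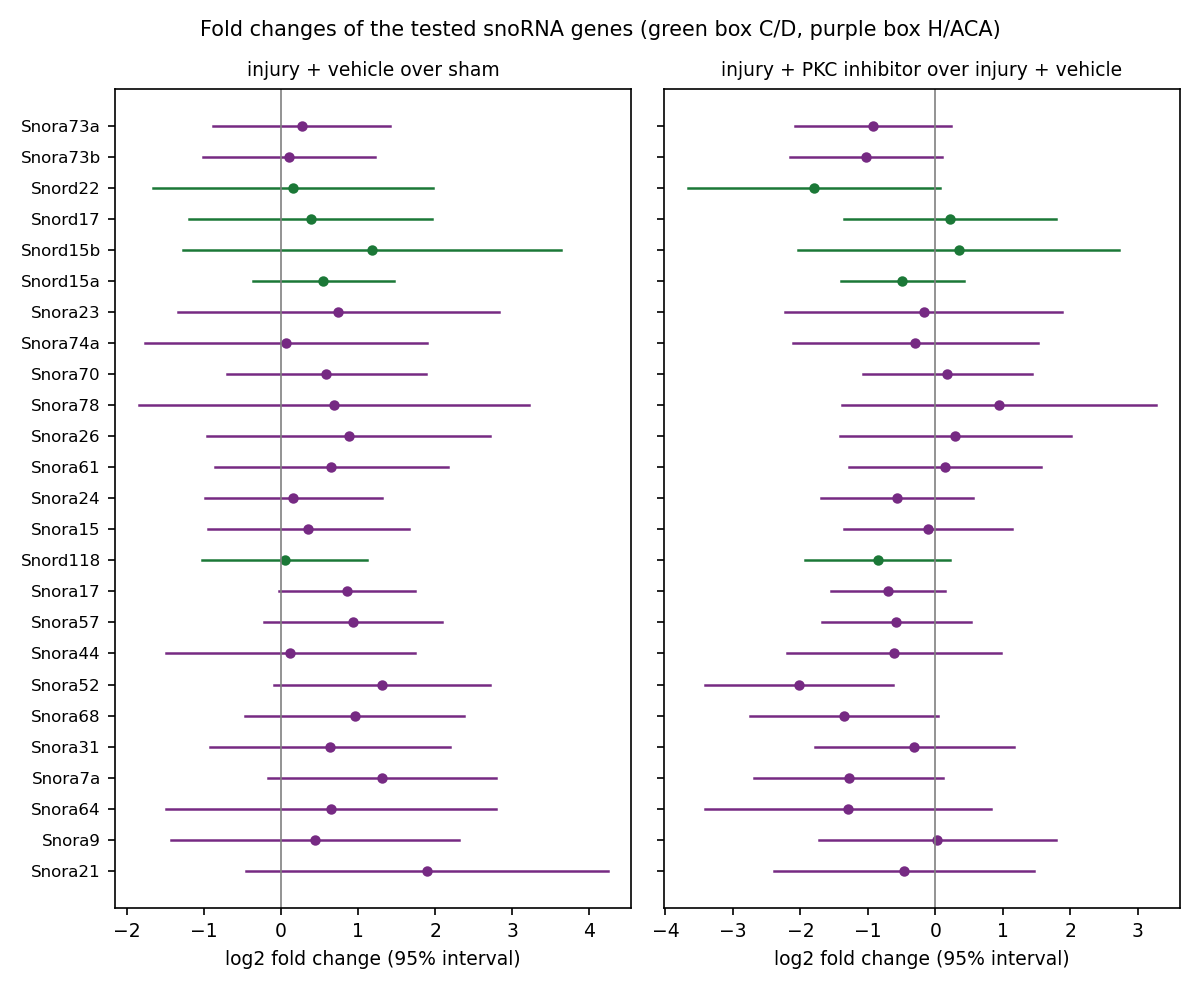
Log2 fold changes with 95% intervals from edgeR for the 25 tested members, ordered by mean normalised count, for vehicle over sham (left) and inhibitor over vehicle (right), with box C/D in green and box H/ACA in purple. All 25 points lie above 0 on the left and 18 lie below 0 on the right, and the interval of Snora52 (right) is the only one that leaves out 0.

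Among the RNAs of precursor cleavage, Snora73a and Snora73b moved together from library to library. The pair matches at 198 of 205 bases, and a read that matches both was counted in full for each. Their values are therefore not independent, and their agreement is no result about 2 separate genes. Snora73a had 1859, 3312 and 8540 normalised counts in inhibitor libraries 1 to 3, 5292, 9142 and 11503 in vehicle libraries and 5022, 6621 and 9906 in sham libraries. Snora73b had 1682, 2861 and 5710 in inhibitor, 4026, 7832 and 9079 in vehicle and 3482, 6063 and 9987 in sham libraries. In normalised counts, inhibitor libraries 1 and 2 were the lowest of all for both genes, and inhibitor library 3 lay within the range of the other groups for both. Before scaling, inhibitor library 2 had the highest counts of all libraries, 8503 for Snora73a and 7345 for Snora73b. Its low normalised values therefore rest on its effective library size, 467 M against 96.4 M to 242 M in the other libraries.

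For Snora73a the log2 fold change was −0.92 (SE 0.52, adjusted p = 0.485 by edgeR) in inhibitor against vehicle knees and 0.27 (SE 0.52, adjusted p = 0.94 by edgeR) in vehicle against sham knees. Without inhibitor library 3 the first became −1.75 with an adjusted p of 0.0449 by edgeR, the only call of a member under any of the 19 alternatives. That fit called 256 of 14555 genes tested, against 101 of 13823 with all libraries. It kept inhibitor libraries 1 and 2, the lowest in 7SL share. For Snora73b the values with all libraries were −1.03 (SE 0.51, adjusted p = 0.423 by edgeR) in inhibitor against vehicle and 0.10 (SE 0.50, adjusted p = 0.983 by edgeR) in vehicle against sham knees. The ratio of Snora73a to Snora73b, in which shared reads count on both sides, stayed between 0.99 (sham 3) and 1.5 (inhibitor 3).

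Snord22 (U22), needed for small-subunit ribosomal RNA in frog oocytes, had 753, 383 and 853 normalised counts in inhibitor, 1220, 2993 and 2709 in vehicle and 512, 1530 and 4192 in sham libraries. All 3 inhibitor libraries were below all 3 vehicle libraries, while the sham libraries spanned both. The log2 fold change was −1.80 (SE 0.78, adjusted p = 0.39 by edgeR) in inhibitor against vehicle and 0.15 (SE 0.76, adjusted p = 0.983 by edgeR) in vehicle against sham knees. Its host Snhg1 gave nearly the same values (log2 fold change −1.76 in inhibitor against vehicle knees), as its counts were almost all those of Snord22.

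Snord118 (U8), which acts on large-subunit ribosomal RNA in frog oocytes, had few counts, at 19.5, 7.01 and 31.2 normalised counts in inhibitor, 29.9, 42.8 and 25.9 in vehicle and 34.9, 39.3 and 20.7 in sham libraries. The groups overlapped throughout. Its log2 fold change was −0.86 (SE 0.51, adjusted p = 0.493 by edgeR) in inhibitor against vehicle and 0.04 (SE 0.50, adjusted p = 0.992 by edgeR) in vehicle against sham knees.

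Among the other box C/D genes, inhibitor library 1 stood above its group. Snord17, in an intron of the sorting nexin gene Snx5, had 2124, 327 and 571 normalised counts in inhibitor, 620, 946 and 1030 in vehicle and 644, 844 and 499.8 in sham libraries. Inhibitor library 1 was the highest and inhibitor library 2 the lowest of all 9. Snx5 itself, which does not share exon reads with Snord17, had 326, 374 and 401 normalised counts in inhibitor libraries and 288 to 371 across the vehicle and sham libraries. The log2 fold change of Snord17 in inhibitor against vehicle knees was 0.22 (SE 0.66, adjusted p = 0.922 by edgeR), and it was −0.95 at the lowest with 1 library left out.

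Snord15a and Snord15b, which guide methylation of large-subunit ribosomal RNA from introns of Rps3, are 66% identical and were counted apart. Snord15b had 1637, 284 and 252 normalised counts in inhibitor, 203, 843 and 663 in vehicle and 79.1, 435 and 243 in sham libraries. Snord15a had 616, 176 and 362 in inhibitor, 369, 632 and 611 in vehicle and 277, 421 and 409 in sham libraries, a narrower spread. The ratio of Snord15b to Snord15a was 2.66, 1.62 and 0.695 in inhibitor, 0.55, 1.33 and 1.08 in vehicle and 0.286, 1.03 and 0.594 in sham libraries. The groups overlapped in this ratio, and Snord15b overlaps an Rps3 exon while Snord15a does not. The log2 fold changes in vehicle against sham knees were 1.18 for Snord15b (SE 1.02, adjusted p = 0.838 by edgeR) and 0.55 for Snord15a (SE 0.41, adjusted p = 0.797 by edgeR).

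**Figure D4:**
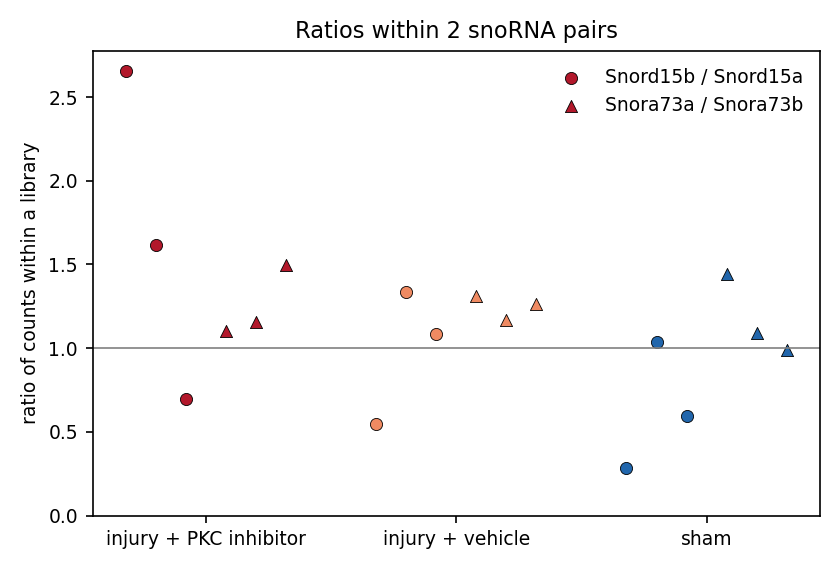
Ratio of counts within each library for Snord15b over Snord15a (circles) and Snora73a over Snora73b (triangles), replicates 1 to 3 from left to right in the inhibitor, vehicle and sham groups. The first ratio runs from 0.286 (sham 1) to 2.66 (inhibitor 1) and the second from 0.99 to 1.5.

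Several box H/ACA guides were also highest in inhibitor library 1. Snora23, in an intron of the nuclear import gene Ipo7, had 881, 119 and 184 normalised counts in inhibitor, 311, 662 and 359 in vehicle and 108, 388 and 304 in sham libraries. Snora74a (U19) had 460, 46.0 and 136 in inhibitor, 196, 305 and 284 in vehicle and 207, 346 and 199.9 in sham libraries. Snora70 had 449, 154 and 136 in inhibitor, 184, 338 and 131 in vehicle and 112, 205 and 119 in sham libraries. For each of the 3 genes inhibitor library 1 was the highest of all 9.

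The same held for Snora78, with 196 normalised counts in inhibitor library 1 and 11.6 to 60.6 in the other 8 libraries, and for Snora26, with 115 against 10.5 to 73.7. Of the 25 tested members, 9 had their highest normalised count in inhibitor library 1, 8 in vehicle library 2 and 12 their lowest in sham library 1. Inhibitor library 1 was also the highest in the summed normalised count of 4 skeletal muscle genes (Acta1, Ckm, Mb and Myh4), with 22237 against 2040 and 3908 in the other inhibitor libraries, 4523 to 5399 in vehicle and 6802 to 17227 in sham libraries. The part of muscle and of the U3 share in these values was not tested. Without inhibitor library 1, the log2 fold change in inhibitor against vehicle knees was −0.95 for Snord17, −1.57 for Snora23 and −1.61 for Snora74a. With all libraries these values were 0.22, −0.17 and −0.30, so among these genes only that of Snord17 changed sign. Snord15b, Snora70, Snora78, Snora26 and Snora61 were also highest in inhibitor library 1. Their log2 fold changes were 0.34, 0.18, 0.95, 0.30 and 0.15 with all libraries. With 1 library left out they reached −1.08, −0.58, −0.98, −0.84 and −1.02 at the lowest.

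**Figure D5:**
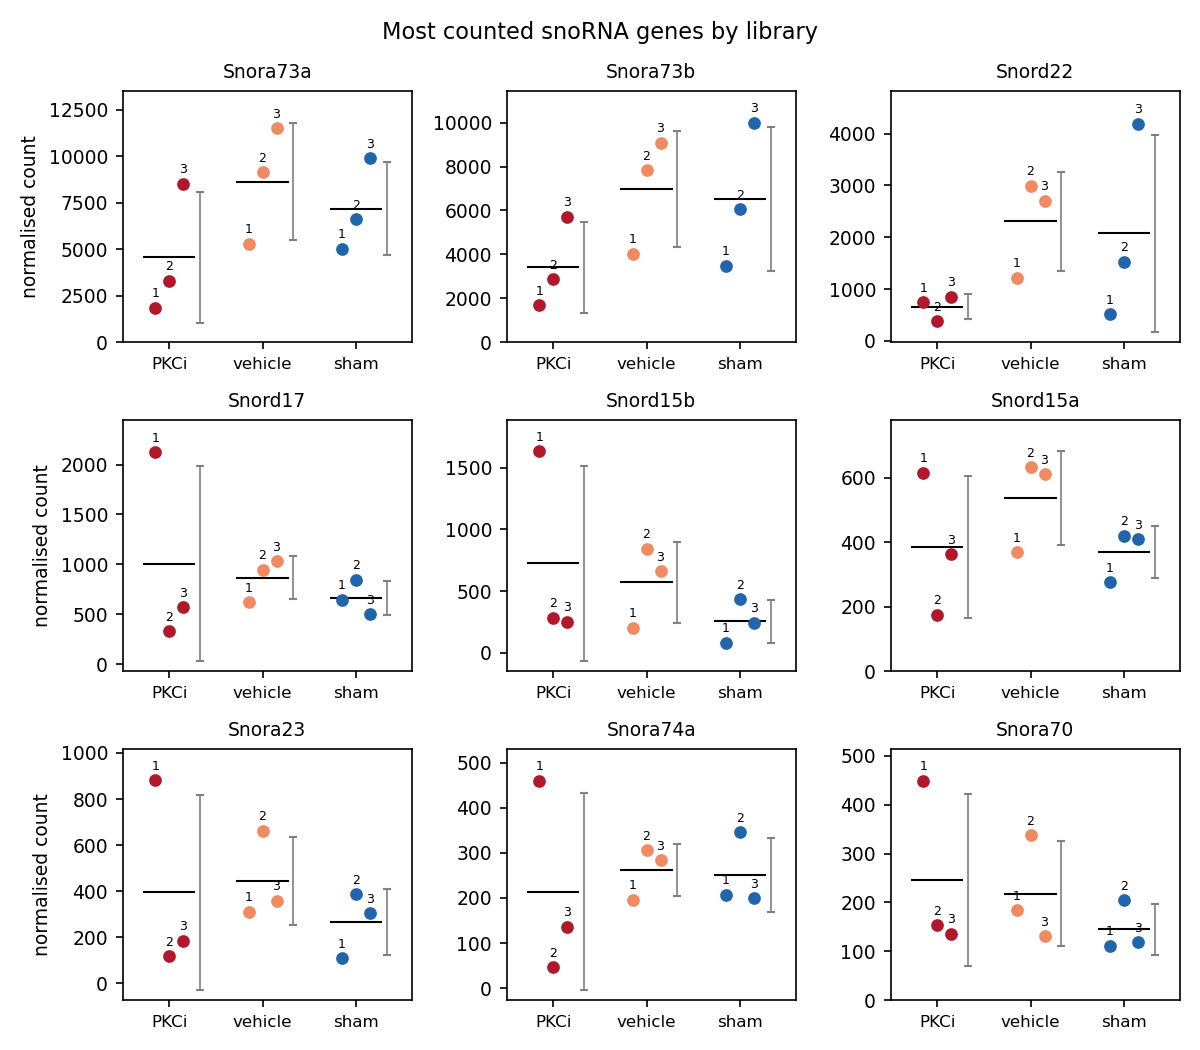
Normalised counts of the 9 most counted members in the inhibitor (PKCi), vehicle and sham libraries, with replicate numbers, the group mean (line) and SD (grey bar, n = 3). Inhibitor library 1 is the highest point for Snord17, Snord15b, Snora23, Snora74a and Snora70 and the lowest for Snora73a and Snora73b.

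Snora52 had 6.0, 9.35 and 3.89 normalised counts in inhibitor, 9.97, 45.2 and 27.3 in vehicle and 11.6, 17.0 and 3.77 in sham libraries. All inhibitor libraries were below all vehicle libraries, narrowly so between inhibitor 2 and vehicle 1. The log2 fold change was −2.02 (SE 0.65, adjusted p = 0.176 by edgeR) in inhibitor against vehicle and 1.31 (SE 0.66, adjusted p = 0.633 by edgeR) in vehicle against sham knees. Over the alternatives the adjusted p by edgeR or DESeq2 for inhibitor against vehicle knees ran from 0.0853 to 0.607.

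Snora17, the tested member with the smallest spread and with no host in the annotation, had 24.0, 16.4 and 20.8 normalised counts in inhibitor, 36.6, 27.3 and 35.5 in vehicle and 16.3, 19.7 and 18.9 in sham libraries. The 3 vehicle libraries were above all 6 others. The log2 fold change was 0.85 (SE 0.41, adjusted p = 0.616 by edgeR) in vehicle against sham and −0.70 (SE 0.40, adjusted p = 0.467 by edgeR) in inhibitor against vehicle knees. Both comparisons use the same vehicle libraries.

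Snora7a, a guide in Rpl32, had its highest group mean in vehicle knees. Snora7a averaged 7.78 ± 5.64 normalised counts in inhibitor, 18.9 ± 6.96 in vehicle and 7.75 ± 2.69 in sham knees (SD, n = 3 each). The log2 fold change was 1.31 (SE 0.70, adjusted p = 0.658 by edgeR) in vehicle against sham and −1.28 (SE 0.66, adjusted p = 0.422 by edgeR) in inhibitor against vehicle knees. Snora21, in Rpl23, had the largest value in vehicle against sham knees (1.89, SE 1.1, adjusted p = 0.703 by edgeR), from 20 counts in the 3 vehicle and 5 in the 3 sham libraries.

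Of the proteins that bind snoRNAs, one gene was called. Nop56, a core protein of the box C/D particle, had 96.8, 123 and 127 normalised counts in inhibitor, 238, 260 and 292 in vehicle and 241, 199 and 313 in sham libraries. It fell in inhibitor against vehicle knees (log2 fold change −1.19, SE 0.22, adjusted p = 0.0248 by edgeR) and in inhibitor against sham knees (−1.11, SE 0.22, adjusted p = 0.0124 by edgeR). Every inhibitor library was below every vehicle and sham library. In vehicle against sham knees its log2 fold change was 0.07 (SE 0.22, adjusted p = 0.969 by edgeR). Cartilage genes were lower in the same libraries. The normalised counts of Col2a1, Acan, Comp and Matn3 summed to 1244, 1087 and 3004 in inhibitor, 6587, 4796 and 7516 in vehicle and 6564, 5376 and 18006 in sham libraries. For 3 of these 4 genes every inhibitor library was below every vehicle library, and for all 4 every inhibitor library was below every sham library, with none at 0. Their part in the values of Nop56, and in those of Snord22, Snora52, Snora68 and Snora17, was not tested.

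The Nop56 call against vehicle knees held in 13 of 19 alternatives, with a log2 fold change of −1.26 to −1.07 when 1 library was left out. It was lost without any one of the 3 vehicle libraries (adjusted p 0.105 without vehicle 3, 0.114 without vehicle 2 and just over the threshold without vehicle 1, by edgeR), without inhibitor 1 and 2 together (0.241, log2 fold change −1.05, with the lone inhibitor library assumed to vary like the other groups), in a fit of these 2 groups alone (0.0615) and when scaled by the snoRNA genes (0.568). The Nop56 call against sham knees held in 16 of 19 alternatives, with a log2 fold change of −1.26 to −0.93 when 1 library was left out. It was lost without sham library 3 (adjusted p 0.0603 by edgeR), without inhibitor 1 and 2 together (0.156, log2 fold change −0.96) and when scaled by the snoRNA genes (0.613).

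Fibrillarin (Fbl), the methyltransferase of the same particle, had 116, 273 and 197 normalised counts in inhibitor, 244, 259 and 224 in vehicle and 160, 125 and 179 in sham libraries, and Nop58 averaged 118 ± 31.4 in inhibitor, 130 ± 15.5 in vehicle and 75.6 ± 16.4 in sham knees (SD, n = 3 each). Neither passed the test in any of the 3 comparisons, nor did Snu13 or Rrp9, the other tested genes of this particle. Against sham knees, inhibitor knees had log2 fold changes of 0.35 for Fbl, 0.63 for Nop58, 0.57 for Snu13 and 0.80 for Rrp9. These are opposite in sign to Nop56. Over the particle's 5 tested genes the median was 0.57 in this comparison. It was −0.14 in inhibitor against vehicle and 0.64 in vehicle against sham knees.

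The other lists gave no call in inhibitor against vehicle or in vehicle against sham knees. This covers 6 tested genes of the box H/ACA particle, 11 of assembly and transport, 8 of release and trimming, 16 of a list of host genes chosen mostly for lacking a protein product (Taf1d has one), 37 host genes of the members and the 5 U3 genes, each with 0 called in either direction. The median log2 fold change of the 6 box H/ACA particle genes was 0.42 in vehicle against sham knees, against −0.02 over all genes, and dyskerin (Dkc1) averaged 89.1 ± 31.2 normalised counts in inhibitor, 90.3 ± 7.56 in vehicle and 83.9 ± 15.7 in sham knees (SD, n = 3 each). The 37 host genes had a median of 0.10 in inhibitor against vehicle knees, where the members had −0.49, and 0.04 in vehicle against sham knees, where the members had 0.64. The 16 host genes chosen mostly for lacking a protein product had medians of −0.40 and 0.22 in these comparisons, with 3 and 11 positive. Some of these, such as Snhg1 and Snhg3, hold mostly counts of a member.

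Among other small RNAs, Scarna17, a guide RNA of Cajal bodies, was higher in inhibitor than in sham knees (log2 fold change 2.65, SE 0.68, adjusted p = 0.0387 by edgeR), with 51.8, 12.9 and 15.6 normalised counts in inhibitor, 13.3, 19.0 and 16.4 in vehicle and 4.65, 3.93 and 3.77 in sham libraries. Its log2 fold change was 1.94 (SE 0.70, adjusted p = 0.383 by edgeR) in vehicle against sham knees. Against vehicle knees, inhibitor knees had 0.71 (SE 0.57, adjusted p = 0.622 by edgeR), and −0.21 without inhibitor library 1. The call against sham knees held in 8 of 18 alternatives. Without inhibitor library 1 the log2 fold change in that comparison was 1.73 with an adjusted p of 0.183 by edgeR. No snoRNA member was called beside it. Scarna17 was the only call among the 10 tested genes of its list, drawn from Rn7sk, Rmrp, Rpph1, Terc and the Scarna genes. The median log2 fold change of these 10 was −0.53 in inhibitor against vehicle knees, where the snoRNA members had −0.49. It was 0.14 in vehicle against sham and −0.34 in inhibitor against sham knees, where the members had 0.64 and 0.15.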

How the data were processed

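The values are raw counts per gene name as deposited by the authors. Per the file headers, read pairs were counted with featureCounts 2.0.1 on the reverse strand over GENCODE M25 exons, with multi-mapping reads and reads over several genes counted in full each time. The submitters' processing notes name mm10 and HISAT2, whose version is not given in the sources used here. Columns were given to samples by name, since their order differs from that of the recorded command. The 27 columns of other tables match no sample label and were not analysed here.

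Of 55291 genes, 13823 passed filterByExpr, and 9 libraries (124 M to 202 M counts) were fitted together with edgeR 4.0.16 in R 4.3.3 (TMM factors, robust quasi-likelihood F test, two-sided, Benjamini-Hochberg over all genes, threshold 0.05). DESeq2 1.42.0 was an alternative, and the procedure was tested on simulated counts. Standard errors were derived from the log2 fold change and its F statistic. Sequences and gene types come from GENCODE M21 on GRCm38, and hosts were found from the gene positions in the count table. Members, lists and the rule for named genes (8 most counted per class, largest changes, known roles, genes at the limit) were chosen with earlier results of these data known.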

Additional observations from a re-analysis of the deposited data

How the results depend on the processing

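Of the alternatives, 0 members were called in each comparison except 1 (Snora73a) in inhibitor against vehicle knees without inhibitor library 3. Leaving out 1 library moved the median log2 fold change of the tested members between 0.33 and 0.91 in vehicle against sham, between −1.01 and −0.15 in inhibitor against vehicle and between −0.47 and 0.41 in inhibitor against sham knees, and the number called between 0 and 1 in inhibitor against vehicle knees. Counts over all genes varied more: 42, 101 and 546 were called in vehicle against sham, inhibitor against vehicle and inhibitor against sham knees, against 157, 355 and 876 by DESeq2. Scaling by protein-coding genes, or with 7SL and U3 removed, left 24 members tested and no call.

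Scaling by the snoRNA genes alone moved the median to −0.01 in vehicle against sham and 0.11 in inhibitor against vehicle knees, and shifted the median of all genes to −0.62 and 0.85. In vehicle against sham knees it turned Snord22 to −0.36, Snord17 to −0.22, Snord15a to −0.033, Snord118 to −0.57, Snora73a to −0.31, Snora73b to −0.45, Snora74a to −0.52 and Snora44 to −0.42, and in inhibitor against vehicle knees Snord15a to 0.056, Snora23 to 0.24, Snora74a to 0.075 and Snora44 to 0.11. Without inhibitor libraries 1 and 2 together, which leaves 1 inhibitor library that is assumed to vary like the other groups, the second comparison turned for Snord17 (−0.60), Snord15b (−1.18), Snora70 (−0.68), Snora78 (−0.89), Snora26 (−0.27) and Snora61 (−0.59).

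With 1 library left out, log2 fold changes in inhibitor against vehicle knees ran from −1.73 to 0.21 for Snora21, −1.57 to 0.25 for Snora23, −0.84 to 0.83 for Snora26, −1.02 to 0.57 for Snora61, −0.58 to 0.62 for Snora70, −1.61 to 0.17 for Snora74a, −0.98 to 1.40 for Snora78, −1.08 to 0.73 for Snord15b and −0.95 to 0.62 for Snord17. In vehicle against sham knees they ran from −0.42 to 1.90 for Snora44, −0.20 to 0.55 for Snora73b, −0.075 to 0.37 for Snora74a, −0.18 to 0.22 for Snord118 and −0.31 to 1.18 for Snord22. The cause was not tested.

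Replicate numbers gave no sign of pairing. Deviations of same-numbered libraries correlated between −0.24 and 0.07, and those of differently numbered libraries between −0.17 and 0.20. With so few libraries this check cannot exclude pairing. With the replicate block, 0 members were called in each comparison, with medians of 0.56, −0.52 and 0.14 for vehicle against sham, inhibitor against vehicle and inhibitor against sham knees, and in inhibitor against vehicle knees Snord17 turned to −0.073 and Snora61 to −0.023. Too few counts to test were found for 26 of 51 members, and what set their low counts was not tested.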
